A study of Homo sapiens with 18 samples.

Results

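A set of 9 genes that feed back on signalling through the kinase ERK, or report on it, was followed in 2 human acute myeloid leukaemia cell lines exposed to DNA methyltransferase inhibitors. The genes were chosen by symbol: DUSP4, DUSP5, DUSP6 and DUSP10 encode phosphatases of mitogen-activated protein kinases (MAPKs), SPRY2 and SPRY4 encode Sprouty proteins, SPRED1 and SPRED2 encode the related Spred proteins, and ETV5 encodes an ETS transcription factor. All 9 were listed among the 17110 genes of HL-60 and 8 among the 17475 genes of MOLM-13, where DUSP4 was not listed. HL-60 is a promyelocytic line with an activating NRAS mutation, and MOLM-13 is a monocytic line with a KMT2A rearrangement and an internal tandem duplication of the receptor kinase FLT3. Cells of both lines received decitabine (DAC), NTX-301 or the solvent dimethyl sulfoxide (DMSO) during 48 h, which gave 6 groups of 3 replicates. DAC is a cytidine analogue that is built into DNA and traps DNA methyltransferases. The other agent, known by the code name NTX-301, inhibits the same enzymes. The stated concentration is 30 nM in the HL-60 cells and 15 nM in the MOLM-13 cells, in wording that can be read as holding for both drugs or for DAC alone. Cells were plated in triplicate on culture plates, and p-values therefore measure the spread between these samples, which may be partly technical.

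Receptor tyrosine kinases, FLT3 among them, switch on RAS, and RAS activates the kinase chain of RAF, MEK and ERK. Active ERK induces its own brakes: Sprouty and Spred proteins act at the level of RAS and RAF, and dual-specificity phosphatases remove the activating phosphates from MAPKs. The transcripts of DUSP6, SPRY4 and ETV5 are widely used as readouts of ERK output, so their levels are commonly read together. DUSP10 differs from the rest, since its protein acts chiefly on the stress kinases p38 and JNK.

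The authors deposited 1 normalized log2 value per gene and sample, and every level or change below is on that scale, which carries no read depth and no correction for gene length. Levels are therefore not compared between genes. Values of weakly expressed genes appear drawn towards their mean in these tables, which compresses their changes. The 9 samples of a line appear to have been normalized together and apart from the other line. The highest sum of linear values in a line was 1.03 times the lowest in HL-60 and 1.08 times in MOLM-13. These sums followed treatment, since every DMSO sample had a higher sum than every drug sample of its line. Sample medians in HL-60 were 9.52 to 9.53 with DMSO or DAC and 9.55 to 9.56 with NTX-301. In MOLM-13 they were 9.79 with DMSO, 9.82 to 9.84 with DAC and 9.82 to 9.83 with NTX-301. The granule genes MPO, ELANE, AZU1, PRTN3 and CTSG, which mark myeloid precursors, were all listed in both lines. HOXA9 and MEIS1, markers of KMT2A-rearranged leukaemia, were listed for MOLM-13 and not for HL-60. Of 13 markers of T cells, B cells, erythroid and stromal cells, the HL-60 files listed 1 and the MOLM-13 files 4. Their summed levels in DMSO, DAC and NTX-301 were 6.42 to 6.44, 6.49 to 6.50 and 6.76 to 6.86 for CD79A in HL-60, and 8.73 to 9.17, 8.67 to 8.98 and 8.87 to 9.53 for HBA1 and HBA2, 7.38 to 7.55, 7.53 to 7.63 and 7.68 to 7.78 for CD3D and 5.81 to 5.84, 5.96 to 6.07 and 6.02 to 6.08 for COL1A1 in MOLM-13. Summed levels here and below are the log2 of summed linear values, so the most abundant gene weighs most. The part of these marker genes in the results was not tested. In bulk RNA, fewer cells of a type and less RNA per cell cannot be told apart.

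In HL-60, 4 of the 9 genes passed the test with DAC and 6 with NTX-301 (limma, adjusted p under 0.05 over 17046 genes), against 24.2% and 37.4% of all genes tested. With DAC, DUSP10, SPRY4 and SPRED1 rose and SPRY2 fell, where 11.6% of all genes rose and 12.6% fell. With NTX-301, DUSP10, ETV5, DUSP4, SPRY4 and DUSP6 rose and SPRY2 fell, where 18.3% rose and 19.2% fell. The median change of the 9 genes was 0.050 under DAC (0.00064 over all genes) and 0.19 under NTX-301 (0.00082). The drug and DMSO samples did not overlap for 5 of the 9 genes under DAC (38.5% of all genes) and 6 under NTX-301 (47.2%). The DAC count was 2 without DAC replicate 2 of HL-60. All 5 granule genes also fell with NTX-301 in HL-60 (median −0.35). Their summed level was 19.00 to 19.09 in DMSO, 18.99 in each DAC sample and 18.62 to 18.65 with NTX-301. MPO changed by −3.6e-15 after quantile normalization and was not called. That step gives genes of equal rank the same value, so it cannot show a fall of a gene that keeps its rank. With DAC, AZU1 rose by 0.20 and CTSG by 0.084, and MPO fell by 0.069. Of the myeloid markers FLT3, LYZ and CD33, 1 rose and 2 fell with DAC, and 0 rose and 1 fell with NTX-301. LYZ rose by 0.25 with DAC (limma adjusted p 1.5e-05). The DAC calls of MPO, CTSG, FLT3 and CD33 and the NTX-301 call of LYZ were each lost in 4 to 9 of 17 alternatives. The part of all these markers in the changes of the feedback genes was not tested.

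In MOLM-13, 3 of the 8 listed genes passed under DAC (36.6% of 17475 genes) and 4 under NTX-301 (45.1%). With DAC, DUSP10 and SPRY4 rose and SPRY2 fell (15.4% of all genes rose and 21.2% fell). With NTX-301, DUSP10 and DUSP6 rose and SPRY2 and DUSP5 fell (20.3% and 24.8%). The medians were 0.021 and 0.030, against 0.0013 and 0.0034 over all genes. There was no overlap with DMSO for 4 of the 8 genes under DAC (47.9% of all genes) and 5 under NTX-301 (55.8%). Myeloid markers moved here too. With DAC, LYZ rose by 0.78 and the granule gene MPO by 0.72, and FLT3 fell by 0.29 (limma adjusted p 1.50e-07, 4.07e-08 and 7.58e-06). Of the granule genes 3 rose and 0 fell with DAC and 2 rose and 1 fell with NTX-301, and their summed level was 17.61 to 17.67 in DMSO, 17.73 to 17.87 with DAC and 17.60 to 17.73 with NTX-301. Of the 5 markers FLT3, HOXA9, MEIS1, LYZ and CD33, 1 rose and 3 fell with DAC and 2 rose and 1 fell with NTX-301. Their summed level was 17.11 to 17.18 in DMSO, 17.59 to 17.69 with DAC and 17.15 to 17.21 with NTX-301. The highest value of any of the 5 was 16.50, 17.33 and 16.63. The sum, in which the most abundant marker weighs most, rose with DAC while 3 markers fell. The DAC calls of HOXA9 and PRTN3 were lost in 8 and 6 of 17 alternatives. With NTX-301 the calls of MEIS1, MPO and LYZ were lost in 4, 3 and 2, with the MPO sign reversed in 1 more. The part of these markers in the changes of the feedback genes was likewise not tested. Both drugs are compared with the same DMSO samples in each line, so the DAC and NTX-301 changes are not independent and are set side by side.

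**Figure D1:**
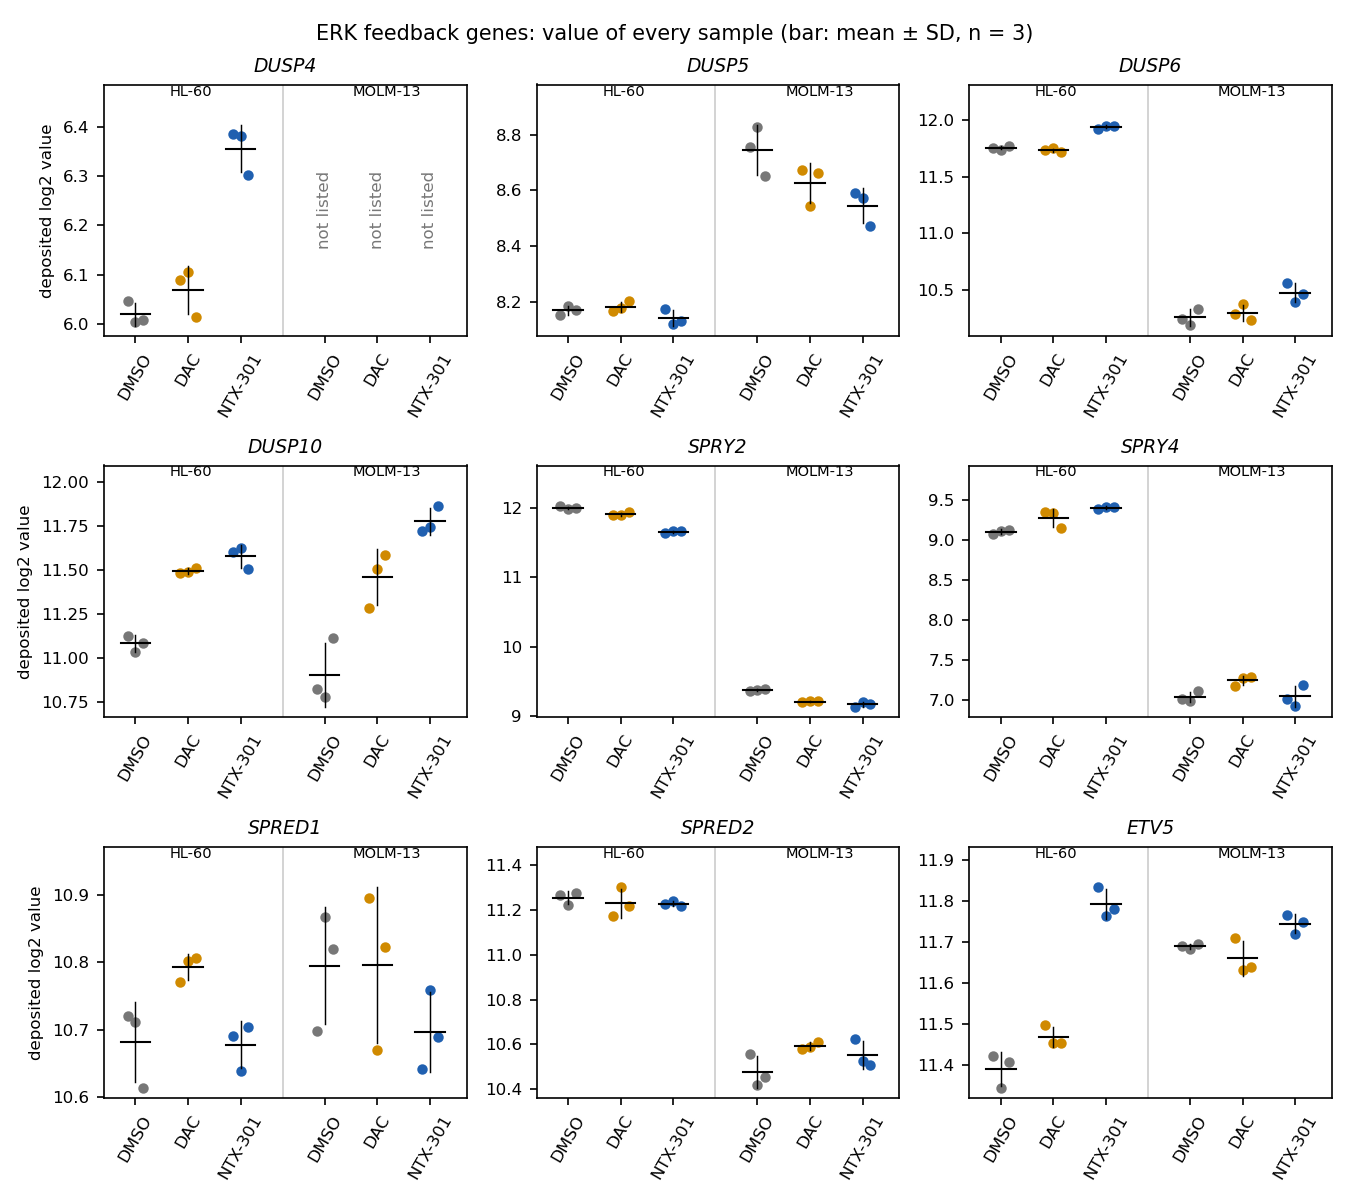
Deposited log2 value of the 9 ERK feedback genes (vertical axis of each panel, with its own range) in every sample of HL-60 and MOLM-13 under DMSO, DAC and NTX-301; points are samples, bars are the mean and SD of 3. DUSP10 sits between 11.03 and 11.13 in HL-60 under DMSO and between 11.49 and 11.63 under either drug, and SPRY2 under NTX-301 sits at or below 11.67 where DMSO is at or above 11.99.

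**Figure D2:**
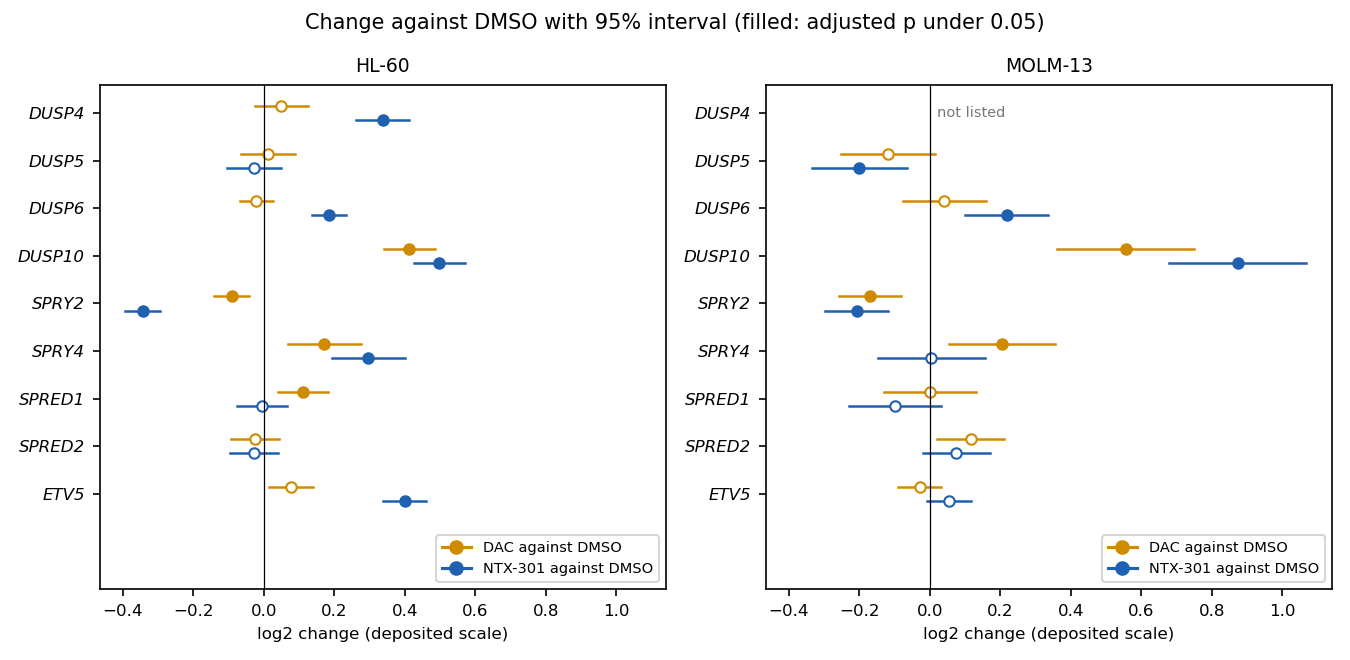
Log2 change against DMSO (horizontal axis) of each gene with its 95% interval, for DAC and NTX-301 in HL-60 (left) and MOLM-13 (right); filled points have an adjusted p under 0.05. The DUSP10 change runs from 0.41 to 0.87 over the 4 comparisons and lies furthest to the right in each panel, while SPRY2 lies to the left in both, with changes from −0.34 to −0.091.

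DUSP10 encodes the MAPK phosphatase of p38 and JNK, and its rise against DMSO exceeded that of the other listed members with either drug in either line. In HL-60 its log2 values were 11.13, 11.03 and 11.09 in DMSO, 11.49, 11.49 and 11.51 with DAC, and 11.61, 11.63 and 11.51 with NTX-301. The drug samples lay above the DMSO samples without overlap, and the 2 drug groups overlapped each other. The log2 change was 0.41 with DAC (SE 0.034, limma adjusted p 1.12e-06) and 0.50 with NTX-301 (SE 0.034, adjusted p 6.90e-08), or 1.33-fold and 1.41-fold on the deposited scale. In MOLM-13 the values were 10.82, 10.77 and 11.11 in DMSO, 11.28, 11.51 and 11.59 with DAC, and 11.72, 11.75 and 11.86 with NTX-301. The 3 groups did not overlap there, with the third DMSO sample the closest to the DAC samples. The change was 0.56 with DAC (SE 0.089, limma adjusted p 0.000503) and 0.87 with NTX-301 (SE 0.089, adjusted p 1.40e-05), or 1.47-fold and 1.83-fold. Only 0.0629% of all genes in MOLM-13 had a larger absolute change with NTX-301. The range of DUSP10 over the 9 MOLM-13 samples was 1.09, where genes within 0.5 of its mean level had a median range of 0.23.

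Both drugs lower the methylation of cytosines in CG dinucleotides as their known action, and the promoters of DUSP10, SPRY2 and SPRY4, which were called with DAC in both lines, are shown with every CG in capitals (RefSeq, GRCh38.p14, 250 bases before to 50 after the annotated start). Promoters of 6 of the 9 genes were examined, with 10 start sites between them; those of DUSP4, DUSP5 and ETV5 were not analysed here. No methylation values were used here, and the part of methylation in the changes was not tested. The start sites of DUSP10 differed in CG content: the inner one had 8 CG dinucleotides and the outer one 19, where the median over 35116 promoters was 14. The files give 1 value per gene, so the share of transcripts from each start is unknown.
DUSP10 inner start, chr1:221736851-221737150, minus strand: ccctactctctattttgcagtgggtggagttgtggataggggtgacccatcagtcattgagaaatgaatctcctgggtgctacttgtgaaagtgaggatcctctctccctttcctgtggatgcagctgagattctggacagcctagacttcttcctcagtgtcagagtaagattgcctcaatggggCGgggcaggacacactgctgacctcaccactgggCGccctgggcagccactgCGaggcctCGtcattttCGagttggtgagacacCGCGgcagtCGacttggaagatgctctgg
DUSP10 outer start, chr1:221742040-221742339, minus strand: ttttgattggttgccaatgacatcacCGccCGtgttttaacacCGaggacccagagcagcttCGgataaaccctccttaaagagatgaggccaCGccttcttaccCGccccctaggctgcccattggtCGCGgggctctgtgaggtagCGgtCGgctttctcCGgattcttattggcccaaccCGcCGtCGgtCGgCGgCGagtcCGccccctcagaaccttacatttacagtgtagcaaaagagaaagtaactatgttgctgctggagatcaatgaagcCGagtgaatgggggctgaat

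DUSP6 encodes the cytoplasmic phosphatase that acts on ERK and is the usual feedback readout. In HL-60 its values were 11.76, 11.74 and 11.77 in DMSO, 11.73, 11.75 and 11.72 with DAC, and 11.93, 11.95 and 11.95 with NTX-301. The NTX-301 samples stood above all others, and the DAC and DMSO samples overlapped. The change was 0.19 with NTX-301 (SE 0.022, limma adjusted p 1.53e-05) and −0.021 with DAC (95% interval −0.069 to 0.027, adjusted p 0.542). In MOLM-13 the values were 10.24, 10.18 and 10.33 in DMSO, 10.29, 10.37 and 10.23 with DAC, and 10.56, 10.39 and 10.46 with NTX-301. The NTX-301 samples again lay above both other groups, and the rise was 0.22 (SE 0.054, limma adjusted p 0.00622). With DAC the change was 0.042 (95% interval −0.077 to 0.16, adjusted p 0.589).

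DUSP4 encodes a nuclear MAPK phosphatase and was weakly expressed in HL-60. Its values were 6.05, 6.00 and 6.01 in DMSO, 6.09, 6.11 and 6.01 with DAC, and 6.38, 6.38 and 6.30 with NTX-301. It rose by 0.34 with NTX-301 (SE 0.035, limma adjusted p 3.59e-06), with no overlap between the groups, and changed by 0.050 with DAC (adjusted p 0.328). Its range of 0.38 over the 9 samples compared with a median range of 0.15 among 1204 genes of like level, on a part of the scale where changes appear compressed.

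DUSP5 encodes a nuclear phosphatase specific for ERK, and its values are uncertain in so far as its pseudogene DUSP5P1 may share reads with it. In HL-60 its 9 values lay between 8.12 and 8.20, and the change was 0.012 with DAC (95% interval −0.063 to 0.088) and −0.027 with NTX-301 (−0.10 to 0.048). Its range of 0.082 there was narrower than that of 99.1% of genes of like level. In MOLM-13 the values were 8.76, 8.83 and 8.65 in DMSO, 8.67, 8.54 and 8.66 with DAC, and 8.59, 8.57 and 8.47 with NTX-301. The NTX-301 samples lay below the DMSO samples, and DUSP5 fell by 0.20 (SE 0.061, limma adjusted p 0.0191). This call was lost without DMSO replicate 2 (−0.16) or NTX-301 replicate 3 (−0.16). The DAC change of −0.12 was not called (adjusted p 0.153), but passed the threshold on centred values (−0.16) and on quantile-normalized values (−0.20).

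SPRY2, which encodes a Sprouty inhibitor of receptor-to-RAS signalling, fell with both drugs in both lines. In HL-60 its values were 12.02, 11.99 and 12.00 in DMSO, 11.91, 11.90 and 11.94 with DAC, and 11.64, 11.67 and 11.67 with NTX-301. The 3 groups did not overlap and stood in that order. The change was −0.091 with DAC (SE 0.023, limma adjusted p 0.0108) and −0.34 with NTX-301 (SE 0.023, adjusted p 6.25e-08). In MOLM-13 the values were 9.36, 9.36 and 9.39 in DMSO, 9.19, 9.21 and 9.21 with DAC, and 9.13, 9.20 and 9.17 with NTX-301. The drug samples lay below the DMSO samples and overlapped each other. The change was −0.17 with DAC (SE 0.041, limma adjusted p 0.00659) and −0.21 with NTX-301 (SE 0.041, adjusted p 0.00143).

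SPRY4 encodes another Sprouty protein and moved opposite to SPRY2 where it was called. In HL-60 its values were 9.06, 9.11 and 9.12 in DMSO, 9.35, 9.33 and 9.14 with DAC, and 9.38, 9.40 and 9.41 with NTX-301. The NTX-301 samples were high and close together, while the third DAC sample lay just above DMSO. The rise was 0.17 with DAC (SE 0.048, limma adjusted p 0.0190) and 0.30 with NTX-301 (SE 0.048, adjusted p 0.000219). The DAC call was lost after quantile normalization (0.15) and without DMSO replicate 1 (0.15), DAC replicate 1 (0.13) or DAC replicate 2 (0.14). In MOLM-13 SPRY4 was weakly expressed, at 7.02, 6.99 and 7.11 in DMSO, 7.18, 7.27 and 7.28 with DAC, and 7.02, 6.93 and 7.19 with NTX-301. The DAC samples lay above DMSO, and the NTX-301 samples spread across both groups. The rise with DAC was 0.20 (SE 0.069, limma adjusted p 0.0365), which did not pass after quantile normalization (0.12) or without DMSO replicate 1 (0.19), DMSO replicate 2 (0.18), DAC replicate 2 (0.19) or DAC replicate 3 (0.19). With NTX-301 the change was 0.0046 (95% interval −0.15 to 0.16, adjusted p 0.963), and its sign flipped after centring (−0.025) and quantile normalization (−0.089).

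The promoters of the 2 Sprouty genes are shown for the same reason and at the same scale. SPRY2 had 3 annotated starts with 6, 15 and 30 CG dinucleotides, of which the last and outermost is given, and SPRY4 had 1 with 26.
SPRY2 outer start, chr13:80341077-80341376, minus strand: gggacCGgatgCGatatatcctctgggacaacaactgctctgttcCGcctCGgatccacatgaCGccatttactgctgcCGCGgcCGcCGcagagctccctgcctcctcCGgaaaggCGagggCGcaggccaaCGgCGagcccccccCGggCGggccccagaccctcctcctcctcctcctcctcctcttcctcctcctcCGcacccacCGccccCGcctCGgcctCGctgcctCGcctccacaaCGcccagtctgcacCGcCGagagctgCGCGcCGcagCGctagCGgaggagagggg
SPRY4, chr5:142324198-142324497, minus strand: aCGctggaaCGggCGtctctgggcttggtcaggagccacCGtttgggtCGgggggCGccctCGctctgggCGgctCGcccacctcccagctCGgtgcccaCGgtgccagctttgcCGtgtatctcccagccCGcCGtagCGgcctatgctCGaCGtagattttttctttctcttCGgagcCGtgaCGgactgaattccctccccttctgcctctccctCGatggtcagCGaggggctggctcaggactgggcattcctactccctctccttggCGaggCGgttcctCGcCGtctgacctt
The windows of the 10 starts were searched on both strands for the ETS motif CCGGAAG, the cAMP response element TGACGTCA and the AP-1 motif TGAGTCA, which do not contain one another. These letters were held by 10.3%, 1.85% and 4.95% of all promoters in the table. The only match was TGAGTCA near the inner start of SPRED2.

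Spred proteins bind RAS regulators at the membrane and restrain RAF activation. SPRED1 in HL-60 read 10.72, 10.71 and 10.61 in DMSO, 10.77, 10.80 and 10.81 with DAC, and 10.69, 10.64 and 10.70 with NTX-301. The DAC samples were the highest, and DMSO and NTX-301 overlapped. The rise with DAC was 0.11 (SE 0.033, limma adjusted p 0.0247), lost without DMSO replicate 3 (0.078), DAC replicate 2 (0.11) or DAC replicate 3 (0.11). The NTX-301 change was −0.0042 (95% interval −0.075 to 0.067). In MOLM-13 SPRED1 ranged from 10.64 to 10.90 over the 9 samples with overlapping groups, and the changes were 0.00096 with DAC (95% interval −0.13 to 0.13) and −0.099 with NTX-301 (−0.23 to 0.031).

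SPRED2 was called in no comparison with DMSO. In HL-60 its 9 values lay between 11.17 and 11.30, with changes of −0.024 for DAC (95% interval −0.093 to 0.044) and −0.027 for NTX-301 (−0.095 to 0.042). In MOLM-13 it read 10.56, 10.42 and 10.45 in DMSO, 10.58, 10.59 and 10.61 with DAC, and 10.62, 10.52 and 10.51 with NTX-301. The DAC samples stood above DMSO by 0.12 (95% interval 0.020 to 0.21, limma adjusted p 0.0569). That change was called with the filter at a mean log2 value of 5 and without DMSO replicate 1 (0.16) or NTX-301 replicate 1 (0.12), and the NTX-301 change of 0.076 was called without DMSO replicate 1 (0.12).

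ETV5, an ETS factor whose transcript follows ERK activity, read 11.42, 11.35 and 11.41 in HL-60 with DMSO, 11.50, 11.46 and 11.45 with DAC, and 11.83, 11.76 and 11.78 with NTX-301. The NTX-301 samples stood apart from the other 6, and the DAC samples lay just above DMSO. The rise with NTX-301 was 0.40 (SE 0.029, limma adjusted p 1.18e-07), and only 2.31% of all genes had a larger absolute change. The DAC change of 0.077 missed the threshold (adjusted p 0.0654), and passed it after quantile normalization (0.098) and with the filter at a mean log2 value of 5. In MOLM-13 the values were 11.69, 11.68 and 11.70 in DMSO, 11.71, 11.63 and 11.64 with DAC, and 11.76, 11.72 and 11.75 with NTX-301. The NTX-301 samples lay above DMSO by a small margin, with a change of 0.055 (95% interval −0.0065 to 0.12, limma adjusted p 0.133), called at 0.12 after quantile normalization. With DAC the change was −0.029 (95% interval −0.091 to 0.032) and 0.016 after quantile normalization.

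The drugs were then compared with each other within each line. In HL-60, 5 of the 9 genes differed between NTX-301 and DAC, against 30.4% of all genes (15.4% higher and 15.0% lower). The drug groups did not overlap for 6 of the 9, against 44.4% of all genes. ETV5 (0.32, SE 0.029, limma adjusted p 1.54e-06), DUSP4 (0.29, SE 0.035, adjusted p 2.71e-05) and DUSP6 (0.21, SE 0.022, adjusted p 9.48e-06) were higher with NTX-301. SPRY2 was lower with NTX-301 by −0.25 (SE 0.023, limma adjusted p 1.98e-06). SPRED1 was also lower (−0.12, limma adjusted p 0.0163), a call lost without DAC replicate 2 (−0.11) or NTX-301 replicate 2 (−0.096). For DUSP10 the difference was 0.085 (95% interval 0.013 to 0.16, limma adjusted p 0.0717), called at 0.12 without NTX-301 replicate 3. For SPRY4 it was 0.13 (0.022 to 0.23, limma adjusted p 0.0642), called at 0.16 without DAC replicate 1 and called with robust variances. DUSP5 (−0.040, 95% interval −0.12 to 0.036) and SPRED2 (−0.0024, −0.071 to 0.066) were not called. The stated concentration may not be that of NTX-301, so the drugs cannot be taken as matched in dose.

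In MOLM-13, limma called 0 of the 8 genes between the drugs, where 7.42% of all genes were called (3.01% higher and 4.41% lower). The lowest adjusted p-values among the 8, none of them under the threshold, were those of DUSP10 (0.32, 95% interval 0.12 to 0.51, limma adjusted p 0.0528), DUSP6 (0.18, 0.058 to 0.29, adjusted p 0.0723), ETV5 (0.084, 0.023 to 0.15, adjusted p 0.0959) and SPRY4 (−0.20, −0.35 to −0.049, adjusted p 0.106). DUSP10, DUSP6 and ETV5 had no overlap between the drug groups, 3 of 8 genes against 27.3% of all genes. DUSP10 was called in 6 of its 17 alternative fits, among them those without DMSO replicate 3 (0.32) or DAC replicate 3 (0.38), and DUSP6 in 3. ETV5 was called at 0.10 after quantile normalization. For SPRY2 the difference was −0.038 (95% interval −0.13 to 0.051).

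**Figure D3:**
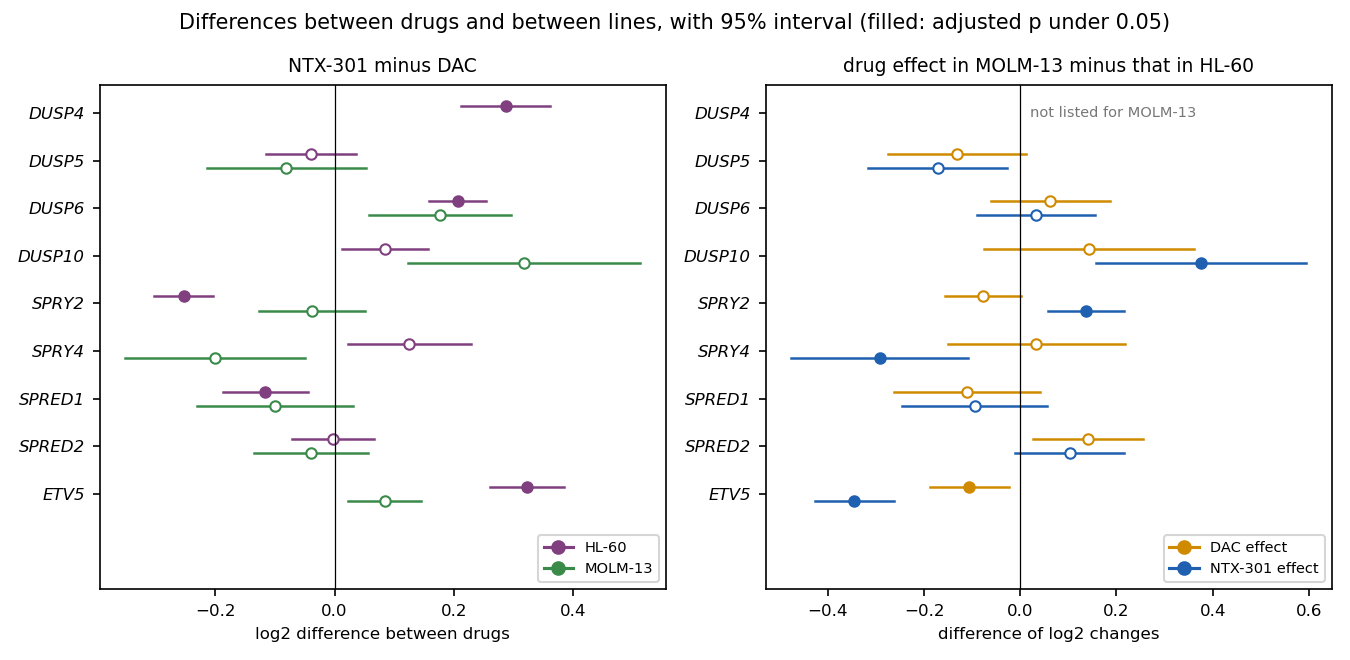
Left, log2 difference of NTX-301 minus DAC for each gene in HL-60 and MOLM-13; right, for DAC and NTX-301, how far the MOLM-13 change exceeded the HL-60 change; bars are 95% intervals and filled points have an adjusted p under 0.05. ETV5 stands at 0.32 between the drugs in HL-60 and at −0.34 between the lines for NTX-301, and DUSP10 at 0.38 between the lines for NTX-301.

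The effects of each drug were compared between the lines as a difference of changes, tested in all 18 samples over 15474 genes. For NTX-301, 4 of the 8 genes differed, against 40.0% of all genes (17.6% higher and 22.4% lower in MOLM-13). DUSP10 rose more in MOLM-13 (0.38, SE 0.10, limma adjusted p 0.00738), and SPRY2 fell less there (0.14, SE 0.038, adjusted p 0.00728). ETV5 (−0.34, SE 0.039, limma adjusted p 1.24e-06) and SPRY4 (−0.29, SE 0.088, adjusted p 0.0123) changed less in MOLM-13 than in HL-60, where both rose. The SPRY2 difference was 0.052 and not called after quantile normalization. Its SE of 0.038 is below the 0.041 of its change in MOLM-13 alone, since this fit takes 1 spread per gene for both lines. For DUSP6, which rose in both lines, the difference was 0.033 (95% interval −0.090 to 0.16) and was not called. SPRED2 (0.10) was called without MOLM-13 DMSO replicate 1 (0.14). For DUSP5 the difference was −0.17 (limma adjusted p 0.0532) and was called in 7 of 25 alternative fits, including those without MOLM-13 DMSO replicate 3 (−0.22), DAC replicate 2 (−0.17) or NTX-301 replicate 1 (−0.20).

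For DAC, 1 of the 8 genes differed between the lines, against 30.0% of all genes (12.1% and 17.9%). This was ETV5 (−0.11, SE 0.039, limma adjusted p 0.0469), which lost its call in 15 of 25 alternative fits, 13 of them leaving out 1 of the 18 samples, with values from −0.11 to −0.083 in those. It kept its call without HL-60 DMSO replicate 1, HL-60 NTX-301 replicate 1, MOLM-13 DAC replicate 1 or MOLM-13 NTX-301 replicate 1 or 2, and lost it without any other sample. SPRED2 differed by 0.14 (adjusted p 0.0600) and was called without HL-60 DAC replicate 2 (0.18), MOLM-13 DMSO replicate 1 (0.18) or MOLM-13 NTX-301 replicate 1 (0.14). SPRY2 differed by −0.078 (limma adjusted p 0.125), and by −0.12 after centring and −0.15 after quantile normalization, both called. DUSP10 differed by 0.14 (95% interval −0.075 to 0.36, adjusted p 0.322), and by 0.25 and called without MOLM-13 DMSO replicate 3. Line and stated concentration cannot be told apart. Since the lines appear normalized apart, their untreated levels are given without a test: SPRY2 read 12.00 ± 0.018 in HL-60 and 9.37 ± 0.018 in MOLM-13 (SD, n = 3), DUSP6 11.76 ± 0.015 and 10.25 ± 0.075, SPRY4 9.10 ± 0.032 and 7.04 ± 0.063, DUSP10 11.08 ± 0.046 and 10.90 ± 0.18, and ETV5 11.39 ± 0.041 and 11.69 ± 0.0063.

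Other genes of the pathway were taken from lists. Their counts stand beside the shares of all genes called, in HL-60 24.2% under DAC and 37.4% under NTX-301 and in MOLM-13 36.6% and 45.1%. Of the other MAPK phosphatases, DUSP1, DUSP2, DUSP7 and DUSP16 were listed in both lines. In HL-60, 0 rose and 1 fell with DAC and 0 rose and 2 fell with NTX-301, and in MOLM-13 2 rose and 1 fell with each drug. The MOLM-13 count of 3 was 1 without DMSO replicate 1 or 2 with each drug, and 1 without the trend with NTX-301. DUSP2, a nuclear phosphatase of activated blood cells, fell by 0.17 with DAC and 0.51 with NTX-301 in HL-60 (limma adjusted p 0.00137 and 3.30e-08) and by 0.20 and 0.45 in MOLM-13 (adjusted p 0.00786 and 2.27e-05). DUSP7 fell by 0.11 with NTX-301 in HL-60 (limma adjusted p 0.00938) and rose by 0.11 with it in MOLM-13 (adjusted p 0.0489). The MOLM-13 call was lost after centring (0.083), without the trend, and without any DMSO replicate (0.10 to 0.13), DAC replicate 3 (0.11) or NTX-301 replicate 1 (0.088) or 2 (0.11). For DUSP1 the MOLM-13 rise amounted to 0.43 (DAC, SE 0.13, limma adjusted p 0.0188) and 0.34 (NTX-301, adjusted p 0.0423). Both DUSP1 calls were lost without DMSO replicate 1 (0.37 and 0.29) or 2 (0.32 and 0.23), DAC replicate 2 (0.40 and 0.34) and, for DAC, DAC replicate 3 (0.35), and, for NTX-301, NTX-301 replicate 1 (0.31) or 3 (0.31). They were also lost without the trend (adjusted p 0.0569 and 0.0980) and with robust eBayes (0.0825 and 0.132), and the NTX-301 call after quantile normalization (0.0683). Of the other Sprouty and Spred genes, SPRY1 fell with NTX-301 by 0.30 in HL-60 (limma adjusted p 6.63e-06) and by 0.19 in MOLM-13 (adjusted p 0.0232). The MOLM-13 call of SPRY1 was lost without DMSO replicate 1 (−0.19) or 3 (−0.14) or NTX-301 replicate 2 (−0.18) or 3 (−0.18). SPRY3 rose by 0.18 with DAC in MOLM-13 and was not called after quantile normalization (0.13).

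**Figure D4:**
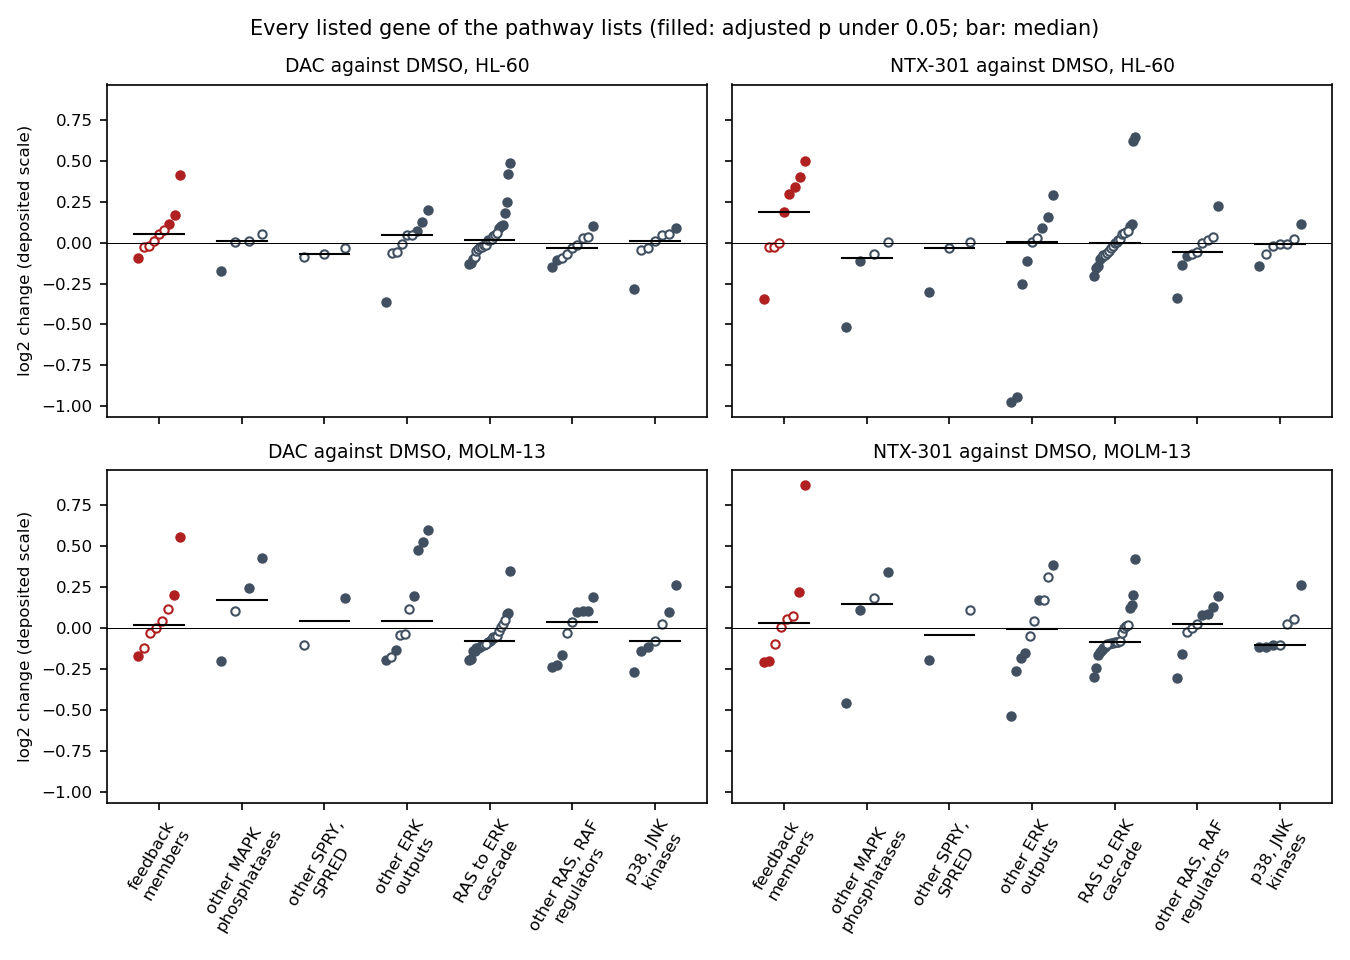
Log2 change against DMSO (vertical axis) of every listed gene of the feedback genes (red) and 6 pathway lists (grey), for DAC and NTX-301 in HL-60 (top) and MOLM-13 (bottom); filled points have an adjusted p under 0.05 and bars are list medians. With NTX-301 in HL-60 the lowest points are EGR1 (−0.97) and FOS (−0.94) among the other ERK outputs, while the median of the feedback genes is 0.19.

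Among 12 other transcripts that ERK drives, the HL-60 files listed 9 and the MOLM-13 files 10. In HL-60, 3 rose and 1 fell with DAC, and 3 rose and 4 fell with NTX-301, with medians of 0.046 and 0.0062 (0.00064 and 0.00082 over all genes). In that line 11.6% of all genes rose and 12.6% fell with DAC, and 18.3% and 19.2% with NTX-301. The immediate-early factors EGR1 and FOS fell by 0.97 and 0.94 with NTX-301 (limma adjusted p 2.13e-10 and 2.30e-10), in the samples in which DUSP6, SPRY4 and ETV5 rose. FOS fell with DAC too, by 0.36 (limma adjusted p 6.36e-06). In MOLM-13 FOS rose by 0.60 with DAC (SE 0.14, adjusted p 0.00583; 0.0515 with robust eBayes), and its change of 0.31 with NTX-301 was not called (adjusted p 0.0935). FOSL1 rose slightly with DAC in HL-60, by 0.073 (limma adjusted p 0.00295), but was weakly expressed, with means of 4.05 in DMSO and 4.12 with DAC. In MOLM-13, 4 rose and 2 fell with DAC, and 2 rose and 4 fell with NTX-301. In MOLM-13 15.4% of all genes rose and 21.2% fell with DAC, and 20.3% and 24.8% with NTX-301. There PHLDA1 rose by 0.53 and 0.39 (limma adjusted p 6.71e-05 and 0.000388), IER3 rose by 0.48 with DAC, and EGR1 fell by 0.54 with NTX-301 (adjusted p 0.000154). In HL-60 PHLDA1 rose by 0.090 with NTX-301 (limma adjusted p 0.00870), at low means of 4.66 in DMSO and 4.75 with NTX-301.

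All 23 genes of the chain from RAS to ERK and its substrates were listed in both lines. In HL-60, 7 rose and 3 fell with DAC, and 5 rose and 5 fell with NTX-301. In MOLM-13, 3 rose and 11 fell with DAC, and 4 rose and 12 fell with NTX-301, with medians of −0.081 and −0.087 (0.0013 and 0.0034 over all genes). These 14 and 16 calls of 23 stand beside 36.6% and 45.1% of all genes, with 21.2% and 24.8% falling. KSR1, the scaffold that holds RAF, MEK and ERK together, rose by 0.49 and 0.65 in HL-60 (limma adjusted p 4.21e-07 and 1.13e-08) and by 0.35 and 0.42 in MOLM-13 (adjusted p 0.00011 and 1.80e-05). GAB2, an adaptor of cytokine receptors, rose by 0.42 and 0.62 in HL-60 and by 0.20 with NTX-301 in MOLM-13. SHC1, the adaptor that links receptors to RAS, fell in MOLM-13 by 0.20 under DAC (limma adjusted p 0.00013) and 0.15 under NTX-301 (0.000635). SHC1 also fell by 0.20 under NTX-301 in HL-60 (limma adjusted p 0.000166). The MOLM-13 count with DAC, 14 called, ranged from 8 to 17 over its alternatives, and was 9 without DMSO replicate 2, 8 without DMSO replicate 3 and 9 without DAC replicate 3.

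Of 9 other negative regulators, 1 rose and 2 fell with DAC and 1 rose and 3 fell with NTX-301 in HL-60, and 4 rose and 3 fell and 4 rose and 2 fell in MOLM-13. Over all genes of HL-60, 11.6% rose and 12.6% fell with DAC, and 18.3% and 19.2% with NTX-301. Over all genes of MOLM-13 these shares were 15.4% and 21.2% with DAC, and 20.3% and 24.8% with NTX-301. With DAC in HL-60 the number called was 1 without DMSO replicate 2 and 5 with robust eBayes or the filter at a mean log2 value of 5. It was 3 without DMSO replicate 3 or NTX-301 replicate 2 for NTX-301 in MOLM-13, where centring left 4 with DAC and 3 with NTX-301. The ubiquitin ligase gene CBL fell by 0.34 with NTX-301 in HL-60 (limma adjusted p 1.28e-07). In MOLM-13 CBL rose by 0.10 under DAC (limma adjusted p 0.00981) and 0.083 under NTX-301 (0.0252). Neither MOLM-13 call of CBL held after centring (0.068 and 0.053), and the NTX-301 call was lost without DMSO replicate 2 (0.082) or 3 (0.077) or NTX-301 replicate 2 (0.077) or 3 (0.070). CIC, the repressor of ETV5 and other ERK targets, rose by 0.22 under NTX-301 in HL-60 (limma adjusted p 9.64e-05). In MOLM-13 CIC rose by 0.19 under DAC (limma adjusted p 0.00721) and 0.20 under NTX-301 (0.00520). Its rise of 0.10 with DAC in HL-60 (limma adjusted p 0.0399) was not called without the trend or with only the 2 groups compared, nor without DMSO replicate 1 (0.093) or 2 (0.095), DAC replicate 1 (0.10) or 2 (0.063) or NTX-301 replicate 2 (0.10). RASA3, a RAS GTPase-activating protein, fell in HL-60 by 0.15 under DAC and 0.14 under NTX-301 (limma adjusted p 0.000426 and 0.000315). In MOLM-13 it fell by 0.22 under DAC and 0.16 under NTX-301, the latter being −0.056 and not called after quantile normalization. PEBP1, a phosphatidylethanolamine-binding protein, fell by 0.24 and 0.30 in MOLM-13. With NTX-301 in HL-60 PEBP1 fell by 0.081 (limma adjusted p 0.0168), a call lost on quantile-normalized values (−0.053) and without DMSO replicate 2 (−0.064) or NTX-301 replicate 2 (−0.070). ERF, an ETS repressor, fell by 0.10 with DAC in HL-60, which did not pass after quantile normalization (−0.090) or without DMSO replicate 2 (−0.11), DMSO replicate 3 (−0.093) or DAC replicate 3 (−0.071).

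The kinases that DUSP10 acts on, and those above them, were a list of 7. With either drug, 1 rose and 1 fell in HL-60, and in MOLM-13 2 rose and 3 fell with DAC and 1 rose and 3 fell with NTX-301. Among all HL-60 genes 11.6% rose and 12.6% fell with DAC, and 18.3% and 19.2% with NTX-301. Among all MOLM-13 genes the shares were 15.4% and 21.2% with DAC, and 20.3% and 24.8% with NTX-301. In HL-60 the number called with DAC was 4 without the trend and 1 without DMSO replicate 2, DAC replicate 1 or DAC replicate 3, and with NTX-301 it was 1 without DMSO replicate 2 or NTX-301 replicate 1. In MOLM-13 it was 3 after quantile normalization or without DMSO replicate 2 with DAC, and 2 after quantile normalization, without the trend or without DMSO replicate 1 or 2 with NTX-301. MAP2K3, an activator of p38, rose by 0.091 and 0.11 in HL-60 and by 0.27 and 0.26 in MOLM-13 (limma adjusted p 0.000132 and 9.55e-05). Its DAC call in HL-60 was lost without DMSO replicate 2 (0.075), DAC replicate 1 (0.089) or DAC replicate 3 (0.084). MAP2K6, the other main activator of p38, fell by 0.28 and 0.14 in HL-60 and by 0.27 with DAC in MOLM-13. The NTX-301 call of MAP2K6 in HL-60 was lost without DMSO replicate 2 (−0.11) or NTX-301 replicate 1 (−0.11). MAP2K4, which activates JNK, fell in MOLM-13 by 0.12 with DAC and 0.11 with NTX-301. The DAC call was lost after quantile normalization (−0.081) and without DMSO replicate 2 (−0.085). The NTX-301 change was not called after quantile normalization (−0.058) or without DMSO replicate 2 (−0.081) or NTX-301 replicate 3 (−0.10).

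The genes with the most similar response were found as those whose 4 changes against DMSO lay nearest to those of DUSP6 and of DUSP10, by Euclidean distance among 9701 other genes with a mean of at least 8 in both lines. For DUSP6 they were LOC374443, SCAND2P, USP40, UBALD2 and ACAD11, at distances from 0.052 to 0.071. For DUSP10 they were FTH1, which encodes the ferritin heavy chain, LOC112268100, HIPK2, a stress-responsive kinase gene, HSPG2 and KCNQ1OT1, at 0.26 to 0.35. No gene compared lay nearer to DUSP10 than FTH1. In HL-60 the FTH1 changes were 0.34 (DAC) and 0.62 (NTX-301), and the MOLM-13 values 0.53 and 0.66. The 4 changes share their DMSO samples within a line. After quantile normalization 0 of the 5 genes nearest to DUSP6 and 3 of those nearest to DUSP10 remained.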

How the data were processed

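Each file held 1 log2 value per gene for 1 sample. The authors deposited these as log2 values marked as normalized per the file headers; the log2 unit was read from the values, and the normalization method is not given in the sources used here. FastQC, Trimmomatic 0.38, HISAT2 and StringTie and the build hg19 are named, with no roles, per the submitters' processing notes. Use of strand and read depth are not given in the sources used here, so no interval that needs a depth is given. Members were taken by symbol.

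Each line's 9 samples entered 1 limma 3.58.1 fit (R 4.3.3, eBayes with trend, two-sided, 6 residual degrees of freedom), with Benjamini-Hochberg adjustment over all genes that reached a linear value of 1 in 3 or more samples and a threshold of 0.05. Effects were compared between lines in 1 fit of 18 samples, which takes 1 spread per gene for both lines. Levels are mean ± SD and changes carry limma's SE or 95% interval. The steps were tested on simulated data. Alternatives were centring, quantile normalization, eBayes without trend, robust eBayes, no filter, a mean log2 value of at least 5, a replicate block, only the 2 groups compared and leaving out each sample.

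Members, lists and the naming rule were chosen with earlier results of these data known. The rule named all members, per list and drug-against-DMSO comparison the 2 called genes with the lowest adjusted p, and the 5 genes nearest to DUSP6 and to the member with the largest change. Promoter sequences came from RefSeq on GRCh38.p14 and were matched by NCBI Gene ID; no other coordinates are given.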

Additional observations from a re-analysis of the deposited data

Results flagged for a closer look

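For 5 pairs of gene and drug, the change in MOLM-13 minus the change in HL-60 passed its own limma test. These were 4 of 8 genes with NTX-301 and 1 of 8 with DAC, beside 40.0% and 30.0% of all genes. With NTX-301 the difference was 0.38 for DUSP10, 0.14 for SPRY2, −0.29 for SPRY4 and −0.34 for ETV5. With DAC it was −0.11 for ETV5, a call lost in 15 of 25 alternative fits. After quantile normalization the SPRY2 difference with NTX-301 was 0.052 and not called. Line and stated concentration cannot be told apart in these values.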

How the results depend on the processing

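Over 17 alternatives in each line, the calls against DMSO of DUSP10 and SPRY2 held with both drugs in both lines, and so did those of DUSP6 with NTX-301 in both lines and of DUSP4, SPRY4 and ETV5 with NTX-301 in HL-60. SPRY4 and SPRED1 with DAC and DUSP5 with NTX-301 in MOLM-13 rested on single samples or on the scaling. The number of members called with DAC in HL-60 lay between 2 and 4 when 1 sample was left out, against 4. Between the drugs in MOLM-13 it was 0, and it was 2 after centring, 1 after quantile normalization, 1 with robust eBayes, 2 with the filter at a mean log2 value of 5, 1 with the replicate block, 1 with only the 2 groups compared and 0 to 1 when 1 sample was left out. For the DAC effect between lines it was 1, with 2 after centring, 2 without the trend, 0 with robust eBayes and 0 to 2 when 1 sample was left out. The cause was not tested.

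Same-numbered samples of different groups had deviations from their group means whose correlation lay between −0.057 and 0.12 in HL-60 and between −0.16 and 0.11 in MOLM-13. For samples with different numbers it lay between −0.115 and 0.106 and between −0.12 and 0.159. With 3 samples per group these values cannot show whether same-numbered samples shared a plate or batch. With the replicate block ETV5 with DAC in HL-60 was called (0.077, limma adjusted p 0.0416), and DUSP10 between the drugs in MOLM-13 was called (0.32, adjusted p 0.0160). Apart from that last count, which went from 0 to 1, the block moved no count of members by over 1.5 times. DUSP7 with NTX-301 in MOLM-13 lost its call with the block (0.11, limma adjusted p 0.0795).

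Changes near 0 that were not called took the other sign as follows. After quantile normalization these were −0.041 for DUSP5 with DAC in HL-60, 0.0028 for SPRED1 with NTX-301 in HL-60, 0.0050 for SPRED2 between drugs in HL-60, 0.016 for ETV5 with DAC in MOLM-13, −0.089 for SPRY4 with NTX-301 in MOLM-13 and −0.028 for SPRY4 in the DAC effect between lines. The marker MPO with NTX-301 in MOLM-13, called at −0.087, was 0.014 and not called. After centring they were −0.036 for SPRED1 with DAC in MOLM-13, −0.025 for SPRY4 with NTX-301 in MOLM-13 and −0.0049 for SPRY4 in the DAC effect between lines. Leaving out 1 sample gave a range of −0.059 to 0.0045 for SPRED2 with DAC in HL-60, −0.038 to 0.016 for SPRED1 with NTX-301 in HL-60, −0.031 to 0.033 for SPRED2 between drugs in HL-60 and −0.049 to 0.064 for SPRED1 with DAC in MOLM-13. It gave −0.067 to 0.062 for SPRY4 with NTX-301 in MOLM-13, −0.033 to 0.070 for SPRY4 in the DAC effect between lines and −0.012 to 0.073 for DUSP6 in the NTX-301 effect between lines. Centring moved the median of all genes by −0.038 to 0.0069, where the median absolute change was 0.043 to 0.10, and it moved the split of calls over all genes. Higher and lower calls went from 3115 and 3265 to 2310 and 5400 for NTX-301 in HL-60, from 2622 and 2563 to 1818 and 4860 between drugs in HL-60, from 2689 and 3705 to 1960 and 5731 for DAC in MOLM-13, from 3543 and 4337 to 2735 and 5760 for NTX-301 in MOLM-13, and from 1871 and 2767 to 1359 and 4382 for the DAC effect between lines.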

Other observations

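DUSP5P1, a pseudogene of DUSP5, was listed in both lines and may share reads with it. It stood at a mean of 6.46 in HL-60 and 8.88 in MOLM-13 under DMSO, and rose with NTX-301 by 0.17 in HL-60 (limma adjusted p 0.00359) and 0.41 in MOLM-13 (adjusted p 0.000323), in the samples in which DUSP5 changed by −0.027 and fell by 0.20. With DAC it rose by 0.23 in MOLM-13, a call lost after quantile normalization (0.15) and without DMSO replicate 3 (0.19) or DAC replicate 3 (0.16). SPRY4-IT1, a noncoding RNA gene at the SPRY4 locus, was listed for HL-60 alone, at a mean of 3.10 under DMSO, with changes of 0.029 and 0.023 that were not called. The single AP-1 match among the searched promoters began at base 245 of the window of the inner SPRED2 start, 6 bases before the start site.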
